A study of Homo sapiens with 18 samples.

Results

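The 10 genes described here encode enzymes of cytosolic fatty acid synthesis and of the elongation, desaturation and activation of its products: FASN, ACACA, ACLY, SCD, ELOVL6, FADS1, FADS2, ACSS2, ME1 and ACSL3. They were picked by symbol from the 31004 genes of the count table, after FASN had been seen to fall strongly with hnRNPK in cells carrying the antisense control, so every comparison that uses the antisense libraries is given as a description with no test. RNA-seq was run on 18 libraries of HCT116, a human colorectal carcinoma cell line, in 6 groups of 3 biological replicates. Ctrl_NC carried the empty control and Ctrl_hnRNPK the empty control plus HNRNPK overexpression. CRLM1_NC carried stable lentiviral overexpression of the long noncoding RNA CRLM1 (LINC01767), and CRLM1_hnRNPK the same plus HNRNPK overexpression. Antisense_NC carried the antisense control, which the study describes as antisense CRLM1 overexpression, and Antisense_hnRNPK the same plus HNRNPK overexpression. NC denotes the negative control for HNRNPK, whose complete cDNA was delivered by plasmid transfection, so reads of the plasmid and of the chromosomal gene are counted together. The sequence of the antisense control is not given in the sources used here.

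Cells make fatty acids from citrate exported by mitochondria. ACLY cleaves that citrate to acetyl-CoA, ACSS2 makes acetyl-CoA from acetate, ACACA carboxylates acetyl-CoA to malonyl-CoA in the committed step, and FASN builds palmitate from both with NADPH, part of which ME1 supplies. ELOVL6 lengthens palmitate, SCD introduces the first double bond into saturated chains, FADS1 and FADS2 desaturate polyunsaturated chains, and ACSL3 couples fatty acids to coenzyme A, at the endoplasmic reticulum and at lipid droplets. Many carcinomas run this pathway at a high rate, and the transcription factors SREBF1 and SREBF2, released from the endoplasmic reticulum when sterols are low, are its best-known activators.

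Total counts were 19732681 to 27039520 per library. HNRNPK itself lay at 424 to 480 CPM (read counts scaled to library size, with TMM factors over all libraries) in the 9 NC libraries and at 491 to 713 CPM in the 9 hnRNPK libraries, so the groups did not overlap. LINC01767 was at 0 in the 6 Ctrl libraries and averaged 599 ± 10.5 CPM in CRLM1_NC, 616 ± 39.7 CPM in CRLM1_hnRNPK, 49.8 CPM in Antisense_NC and 42.2 CPM in Antisense_hnRNPK. Whether strand was used in the counting is not given in the sources used here, so sense and antisense reads of this locus cannot be told apart. All 5 epithelial markers were expressed, with summed levels of 1987 to 6044 CPM, and 6 of the 8 fibroblast, immune and endothelial markers in the table stayed under 1 CPM in every library. The epithelial sum was lowest in Antisense_hnRNPK, at 1987 to 2251 CPM, against 3600 to 3841 CPM in Antisense_NC. Its part in the differences below was not tested.

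The libraries of replicate 3 in Ctrl_hnRNPK and CRLM1_hnRNPK stood apart from the other 7 hnRNPK libraries. Across 12845 genes, the shift of each hnRNPK library from its own NC mean had a Spearman correlation with the GC content of the transcript of 0.15 in Ctrl_hnRNPK replicate 3 and 0.50 in CRLM1_hnRNPK replicate 3, and of -0.83 to -0.67 in the others. Genes are not independent replicates and the points share the same libraries, so these are descriptions. HNRNPK, at 41.6% GC, had log2 fold changes with hnRNPK of 0.29, 0.56 and 0.35 in the Ctrl, CRLM1 and antisense backgrounds, and of -0.07, 0.27 and -0.20 once a trend on GC content and length was removed, so its direction flipped in the Ctrl and antisense backgrounds. Without replicate 3 the values were 0.44, 0.65 and 0.27, and -0.09, 0.14 and -0.25 with the trend removed as well. The study set both libraries aside in its own comparisons because of their profiles. All libraries are used here, and the comparisons that rest on these libraries are also given without replicate 3.

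In Ctrl_NC the members spanned a wide range of levels per transcript length. SCD was highest at 269 ± 2.53 FPKM (SD, n = 3, as for all levels below), 110-fold above the lowest member. FASN followed at 113 ± 2.27 FPKM and ACLY at 52.4 ± 1.13 FPKM. The acetate-using enzyme ACSS2 lay at 14.7 ± 1.01 FPKM and the NADPH source ME1 at 12.03 ± 0.214 FPKM. ACSL3 and ACACA, at 7.56 ± 0.194 and 7.46 ± 0.0702 FPKM, overlapped. FADS1 was at 6.55 ± 0.101 FPKM. ELOVL6 and FADS2 closed the order at 2.61 ± 0.115 and 2.44 ± 0.157 FPKM and overlapped as well. The committed carboxylase was thus measured well below the synthase that uses its product.

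FASN (ENSG00000169710.6) lies at chr17:82078338-82098294 on the minus strand of GRCh38, ACACA at chr17:37084992-37406836 and ACLY at chr17:41866917-41930542, both also on the minus strand. SCD lies at chr10:100347233-100364826 on the plus strand, ELOVL6 at chr4:110045846-110199199 on the minus strand and ACSL3 at chr2:222860942-222944639 on the plus strand. ACSS2 is at chr20:34872146-34927962 on the plus strand and ME1 at chr6:83210402-83431051 on the minus strand. FADS1, at chr11:61799627-61829318 on the minus strand, lies within the span of FADS2, at chr11:61792980-61867354 on the plus strand. They share 490 exonic bases, 4.79% of those of FADS1 and 4.64% of those of FADS2. ACLY, ELOVL6 and ACSL3 share 3.0%, 3.3% and 2.79% of their exonic bases with antisense noncoding genes. Counts of these 5 genes are uncertain because the use of strand is not known, and a share of bases does not give a share of reads. On their own strands, FADS1 also shares 80 bases with MIR1908 and FADS2 49 bases with FEN1.

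RefSeq promoters (GRCh38.p14) were at hand for 9 of the 10 members, all but FASN, and the 250 bases before each start were searched on both strands for 4 short motifs. The CCAAT box, the letters bound by NF-Y, a factor that works beside SREBF proteins at lipogenic promoters, was found in 7 of 14 member promoters, belonging to ACACA, ACLY, SCD, ACSS2 and ACSL3, against 32.01% of all 35116 promoters. The GC box GGGCGG, the letters bound by SP1, was found in 12 of 14, covering all 9 members, against 42.64% of all promoters. The 14 windows had a GC content of 43.6% to 81.6%, and the shares over all promoters were not matched for it. The sterol regulatory element core TCACNCCAC was in 0 of 14 (0.88% of all promoters) and the E-box CACGTG in 0 of 14 (6.34%). The windows of ACLY overlap each other, as do those of FADS2, and a match of letters is no measurement of binding. Below are ACLY (chr17:41919023-41919272, minus strand) and SCD (chr10:100346983-100347232, plus strand), the member whose profile was closest to that of FASN and the member with the highest level per length, and ELOVL6 (chr4:110198616-110198865, minus strand), which was higher than in its NC libraries in 8 of the 9 hnRNPK libraries. Each run is given 5′ to 3′ and ends at the base before the start, and capitals mark a CCAAT box or its reverse complement, which begin 65 and 23 bases before the start in ACLY, 229 and 186 bases before it in SCD, and are not found in ELOVL6.
ACLY: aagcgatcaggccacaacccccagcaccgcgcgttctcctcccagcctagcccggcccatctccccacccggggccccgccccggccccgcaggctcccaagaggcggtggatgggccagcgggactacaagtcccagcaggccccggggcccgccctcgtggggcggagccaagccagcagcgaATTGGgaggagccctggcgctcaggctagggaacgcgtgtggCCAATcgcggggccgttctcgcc
SCD: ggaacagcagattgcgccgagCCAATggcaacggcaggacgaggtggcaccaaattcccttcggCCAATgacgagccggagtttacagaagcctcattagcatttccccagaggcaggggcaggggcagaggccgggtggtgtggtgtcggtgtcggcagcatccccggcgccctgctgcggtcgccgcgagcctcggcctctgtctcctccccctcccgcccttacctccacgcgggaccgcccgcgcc
ELOVL6: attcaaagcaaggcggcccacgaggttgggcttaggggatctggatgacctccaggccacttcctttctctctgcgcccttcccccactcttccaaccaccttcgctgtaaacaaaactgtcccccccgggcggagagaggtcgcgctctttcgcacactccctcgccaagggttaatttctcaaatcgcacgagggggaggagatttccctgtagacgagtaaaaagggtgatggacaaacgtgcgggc

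FASN, ACSS2 and SCD were higher in CRLM1_NC than in Ctrl_NC, and higher still in Antisense_NC, as described below. The part of CRLM1 itself in this was not tested. FASN stood at 1401, 1389 and 1344 CPM in the Ctrl_NC libraries and at 1807, 1818 and 1825 CPM in the CRLM1_NC libraries. The groups did not overlap, and FASN was 1.30-fold higher (log2 fold change 0.38 ± 0.03, SE, edgeR adjusted p = 6.86e-15). ACSS2 rose from 60.0, 68.6 and 66.7 CPM to 77.9, 82.0 and 81.2 CPM, a 1.22-fold difference (0.28 ± 0.05, edgeR adjusted p = 3.80e-05). SCD rose by the least, from 2038, 2065 and 2071 CPM to 2205, 2179 and 2209 CPM, or 1.06-fold (0.08 ± 0.03, edgeR adjusted p = 0.0132). The other 7 members had log2 fold changes of -0.12 to 0.08 and did not pass. Thus 3 of 10 members passed, all higher, beside 16.9% of the 14459 genes tested that passed higher and 34.3% in either direction. The median log2 fold change was 0.01 over the members and 0.01 over all genes. Without replicate 1 of Ctrl_NC 2 members passed, SCD no longer among them, and without replicate 3 of CRLM1_NC 5 did. With the GC and length trend removed 5 members passed, beside 33.8% of all genes, of which FASN (0.43) and ACSS2 (0.30) were higher and ACACA (-0.10), FADS1 (-0.16) and ME1 (-0.19) lower, while SCD was at 0.01. In 1 fit over all 18 libraries, in which the 6 groups share one estimate of the spread, 0 members passed.

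**Figure D1:**
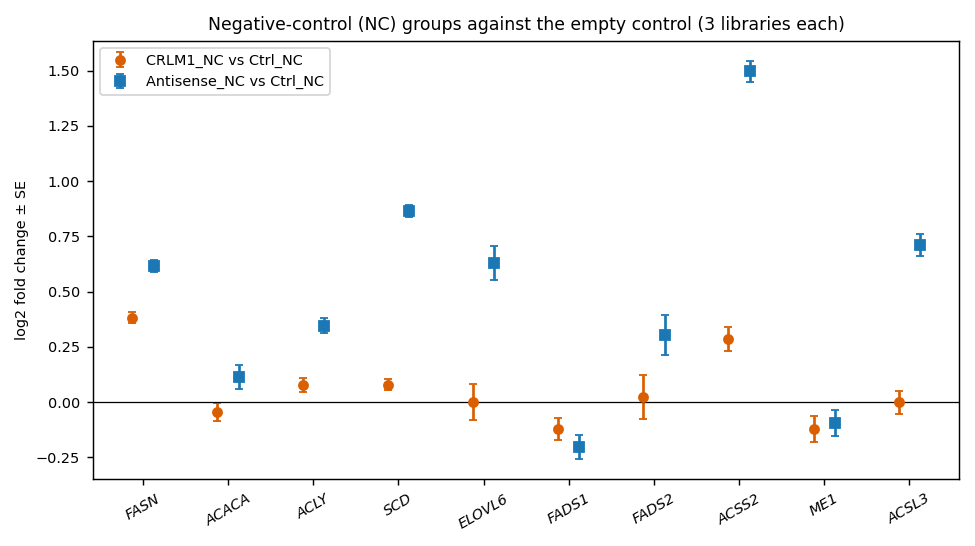
Log2 fold change with its SE (edgeR) of each member in CRLM1_NC against Ctrl_NC and in Antisense_NC against Ctrl_NC, 3 libraries per group. Both share the Ctrl_NC libraries. CRLM1_NC values lie between -0.12 and 0.38, and Antisense_NC values between -0.20 for FADS1 and 1.50 for ACSS2.

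The antisense control cells without HNRNPK, described with no test, had higher levels of most members than the empty control. ACSS2 differed most, with 181, 200 and 191 CPM in Antisense_NC, 2.82-fold above Ctrl_NC (log2 fold change 1.50 ± 0.05). SCD lay at 3817, 4039 and 3771 CPM, 1.82-fold above Ctrl_NC (0.86 ± 0.03), and FASN at 2192, 2192 and 2168 CPM, 1.53-fold above it (0.62 ± 0.03). These libraries lay above all Ctrl_NC and CRLM1_NC libraries for all of FASN, SCD and ACSS2. ACSL3 was 1.64-fold higher, ELOVL6 1.55-fold, ACLY 1.27-fold and FADS2 1.23-fold, whereas FADS1 was lower (-0.20 ± 0.05 on the log2 scale). The groups did not overlap for 7 members that were higher and 1 that was lower, beside 38.2% and 30.7% of all genes, and 1 member was higher by 2-fold, beside 7.28%. The median over the members was 0.48 against -0.00 over all genes. With the GC and length trend removed ACSL3 and ELOVL6 came to 0.31 and 0.30 and ME1, at -0.09 before, to -0.44.

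CRLM1_NC set against Antisense_NC shares libraries with both comparisons above, so its values are given beside them and not as further evidence. ACSS2 was 2.31-fold lower in CRLM1_NC (-1.21), and the log2 fold changes of SCD, ACSL3, ELOVL6 and FASN were -0.78, -0.71, -0.62 and -0.23. Without overlap of the groups 8 members were lower and 0 higher, beside 34.2% and 26.5% of all genes. For FASN the 3 NC groups were therefore ordered Ctrl_NC, CRLM1_NC and Antisense_NC with no overlap of neighbours, and CRLM1_NC sat nearer to Antisense_NC for FASN but nearer to Ctrl_NC for SCD, ACSS2, ACSL3 and ELOVL6.

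**Figure D2:**
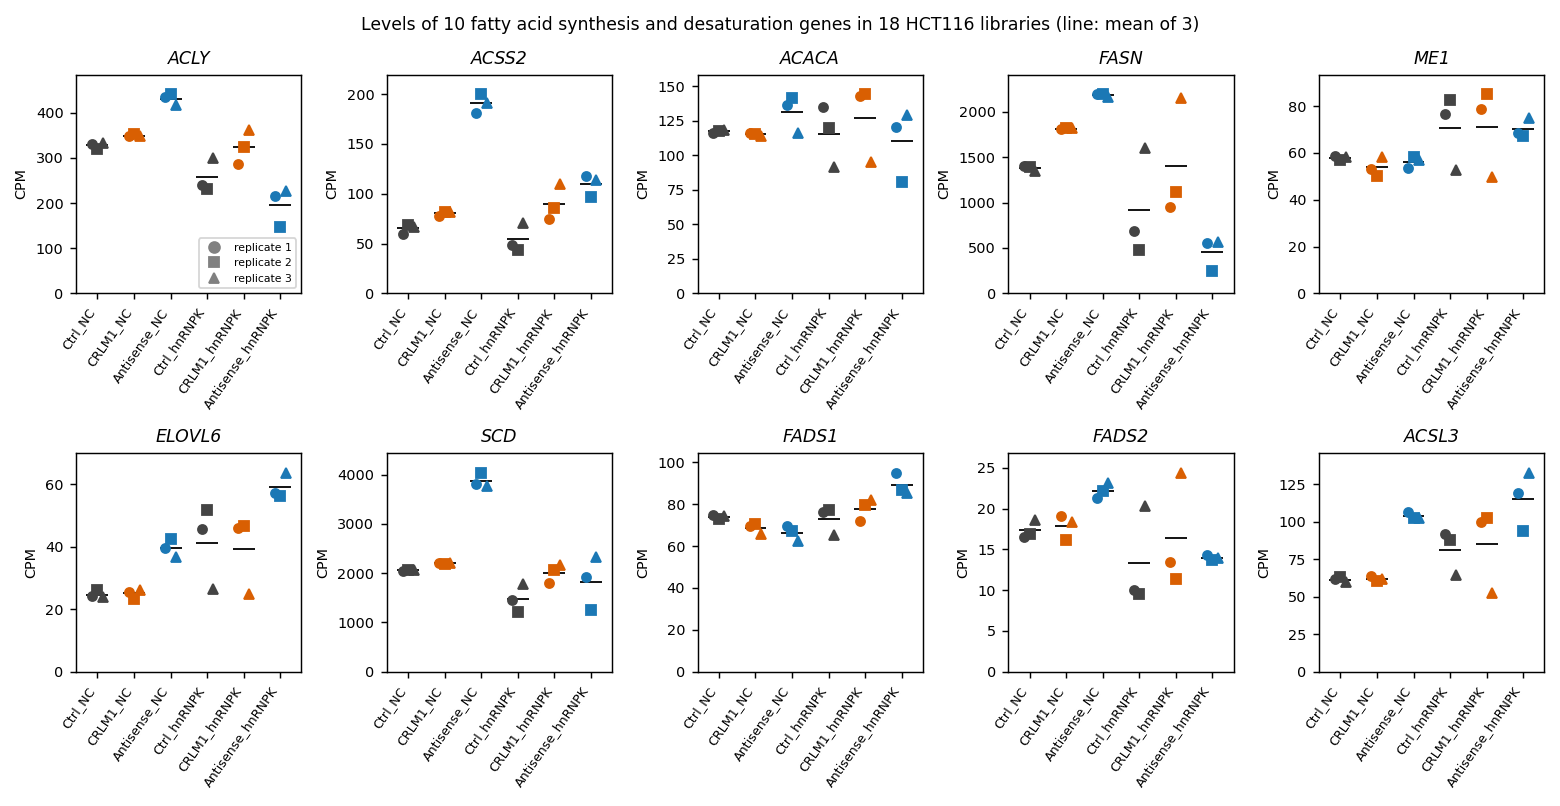
CPM (TMM over 18 libraries) of each member in every library, 1 panel per gene, by group. Circle, square and triangle are replicates 1, 2 and 3 and the line is the mean of the 3. In Ctrl_hnRNPK and CRLM1_hnRNPK the triangle lies apart from the circle and square for FASN, at 1599 and 2154 CPM.

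With HNRNPK in the empty-control background, FASN fell in 2 libraries and not in the third. FASN measured 690, 479 and 1599 CPM in Ctrl_hnRNPK, against 1344 to 1401 CPM in Ctrl_NC, so the groups overlapped, with a log2 fold change of -0.61 ± 0.36 (edgeR, adjusted p = 0.358). ELOVL6 lay at 45.7, 51.6 and 26.4 CPM against 24.0 to 26.0 CPM (0.72 ± 0.24), and SCD at 1458, 1211 and 1783 CPM against 2038 to 2071 CPM (-0.50). In both genes replicate 3 lay nearest to Ctrl_NC, yet outside its range. By edgeR 0 of 10 members passed, beside 0.0% of 14607 genes, as with DESeq2 and limma. At an unadjusted p under 0.05 there were 2 members, ELOVL6 and SCD, and 2246 genes. ACLY and SCD were lower and ELOVL6 and ACSL3 higher without overlap of the groups, beside 20.6% of all genes without overlap in either direction.

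Without replicate 3 of Ctrl_hnRNPK, 8 of 10 members passed, 5 lower and 3 higher, beside 29.9% of genes lower and 29.6% higher. FASN was 2.32-fold lower (-1.21 ± 0.17, edgeR adjusted p = 0.00172), the one member past 2-fold, where 1.71% of genes were as low. FADS2 fell by 0.81 on the log2 scale, from 16.6 to 18.6 CPM to 10.0 and 9.49 CPM (edgeR, adjusted p = 2.72e-05). SCD (-0.60, edgeR adjusted p = 5.30e-07), ACSS2 (-0.48, edgeR adjusted p = 0.000135) and ACLY (-0.45, edgeR adjusted p = 2.38e-06) fell as well. Of the members, ELOVL6 (1.00 ± 0.09, edgeR adjusted p = 7.12e-08), ACSL3 (0.57 ± 0.07, edgeR adjusted p = 2.33e-06) and ME1 (0.48 ± 0.07, edgeR adjusted p = 1.95e-05) rose. ACACA at 0.14 and FADS1 at 0.08 did not pass. The 3 of 10 members that passed higher stand near the 29.6% of all genes, and the 5 that passed lower stand above the 29.9%. The members were not tested as a set. The fit rests on 2 libraries of Ctrl_hnRNPK, and replicate 3 was left out because of its profile.

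In the CRLM1 background replicate 3 again stood apart for FASN. FASN lay at 946, 1114 and 2154 CPM in CRLM1_hnRNPK against 1807 to 1825 CPM in CRLM1_NC, a log2 fold change of -0.34 ± 0.28 (edgeR, adjusted p = 0.641), with replicate 3 above and the other 2 libraries below the CRLM1_NC range. ELOVL6 lay at 46.0, 46.8 and 24.9 CPM against 23.3 to 26.3 CPM (0.70). By edgeR 0 of 10 members passed, beside 0.0% of 14394 genes, and also 0 of 10 with DESeq2 and limma. At an unadjusted p under 0.05 there were 1 member, ELOVL6, and 1332 genes. SCD was lower and FADS1 higher without overlap, beside 15.2% of all genes.

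Without replicate 3 of CRLM1_hnRNPK, 9 of 10 members passed, 4 lower and 5 higher, beside 29.1% of genes lower and 29.5% higher. FASN was 1.70-fold lower (-0.77 ± 0.05, edgeR adjusted p = 1.49e-12) and FADS2 fell by 0.48 on the log2 scale (edgeR, adjusted p = 0.00151). ACLY (-0.15, edgeR adjusted p = 0.0162) and SCD (-0.14, edgeR adjusted p = 0.0183) fell by less. ELOVL6 (0.94, edgeR adjusted p = 1.47e-10), ACSL3 (0.76, edgeR adjusted p = 1.67e-11) and ME1 (0.65, edgeR adjusted p = 3.58e-09) rose, as did ACACA (0.37, edgeR adjusted p = 9.24e-07) and FADS1 (0.19, edgeR adjusted p = 0.0160). ACSS2, at 74.4 and 85.5 CPM against 77.9 to 82.0 CPM, did not pass (0.04, edgeR adjusted p = 0.622). No member reached 2-fold. The fit rests on 2 libraries of CRLM1_hnRNPK. Replicate 3 was left out because of its profile, so these p-values do not include its spread. In bulk libraries such as these, fewer cells with a transcript and less of it per cell cannot be told apart.

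**Figure D3:**
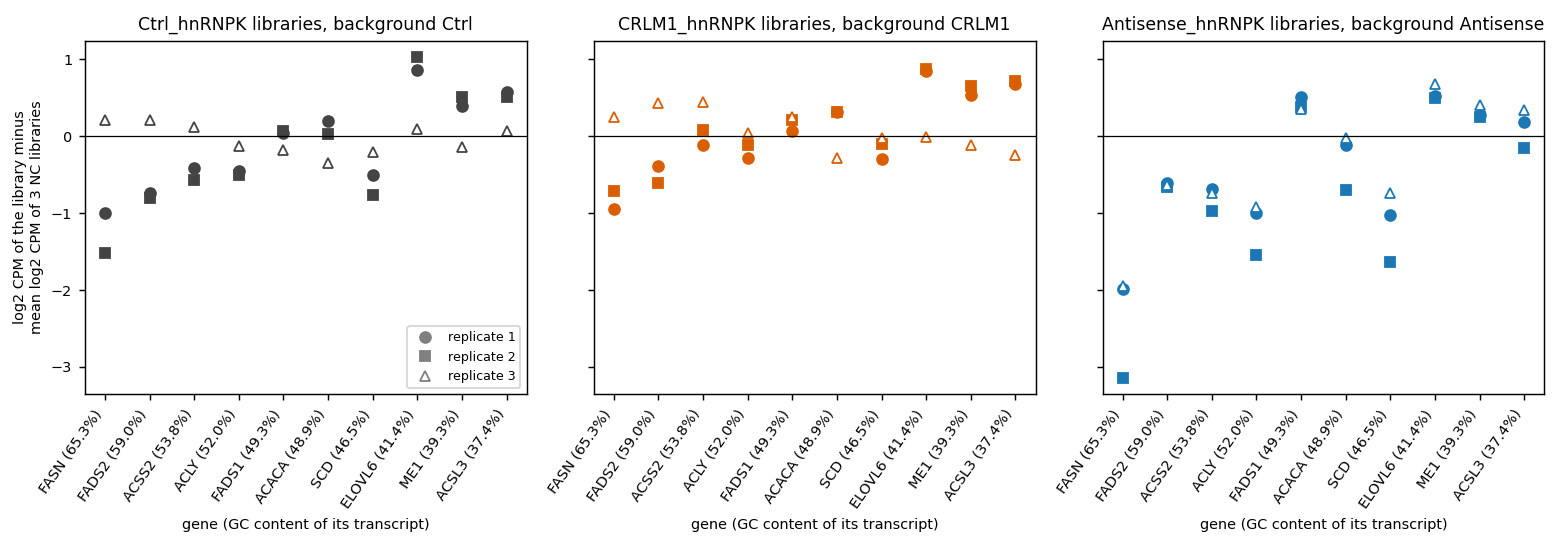
Log2 CPM of each member in each hnRNPK library minus the mean of the 3 NC libraries of the same background, members ordered by GC content of the transcript. Open triangles are replicate 3. FASN (65.3% GC) lies between -3.15 and 0.25 and ACSL3 (37.4% GC) between -0.24 and 0.72, and both replicate 3 libraries of Ctrl_hnRNPK and CRLM1_hnRNPK lie at or above 0.22 for FASN.

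In the antisense background, the comparison that the choice of members used, FASN differed most of the members. Its level was 553, 246 and 567 CPM in Antisense_hnRNPK against 2168 to 2192 CPM in Antisense_NC, a 4.84-fold lower value (-2.27 ± 0.28). ACLY lay at 215, 147 and 228 CPM against 417 to 440 CPM (2.21-fold lower, -1.14 ± 0.12), and SCD at 1914, 1244 and 2318 CPM against 3771 to 4039 CPM (2.14-fold lower, -1.10 ± 0.17). In each of the genes replicate 2 was the lowest library, and no library of the groups overlapped. ACSS2 was 1.75-fold lower (-0.80 ± 0.08), just short of the 2-fold that SCD exceeded, and FADS2 1.59-fold lower (-0.67 ± 0.10). ELOVL6 (0.57 ± 0.08), FADS1 (0.42 ± 0.08) and ME1 (0.32 ± 0.08) were higher. For ACACA (-0.26 ± 0.14) and ACSL3 (0.14 ± 0.10) the groups overlapped. That made 5 members lower and 3 higher without overlap, beside 33.1% and 35.4% of all genes, and 3 members lower by 2-fold, beside 6.25%. The median over the members was -0.47 against 0.04 over all genes. FASN, whose fall here prompted the choice of members, enters these counts and this median, so they are no test of the set.

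GC content moved with these differences. Across all genes tested, the log2 fold change with hnRNPK had a Spearman correlation with GC content of -0.75 in the Ctrl background and -0.77 in the CRLM1 background without replicate 3, and of -0.73 in the antisense background. Among the members, FASN at 65.3% and FADS2 at 59.0% had the highest GC content and were lower in the hnRNPK libraries other than both replicate 3 libraries named above. ELOVL6 at 41.4%, ME1 at 39.3% and ACSL3 at 37.4% had the lowest, and were higher in those libraries, save ACSL3 in Antisense_hnRNPK replicate 2. SCD was lower with a GC content of 46.5%, below that of ACACA (48.9%) and FADS1 (49.3%).

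With the trend on GC content and length removed and all libraries kept, 0 of 10 members passed with hnRNPK in the Ctrl or the CRLM1 background. With replicate 3 of Ctrl_hnRNPK and CRLM1_hnRNPK left out as well, SCD, FASN, ACLY and ELOVL6 passed in the Ctrl background. SCD stood at -0.78, FASN at -0.63 ± 0.12 (edgeR, adjusted p = 0.0103), ACLY at -0.23 and ELOVL6 at 0.43. FADS2 (-0.29), ACSS2 (-0.15), ME1 (-0.15) and ACSL3 (-0.12) did not pass. Thus 4 of 10 members passed, beside 23.0% of all genes. In the CRLM1 background 6 passed, beside 25.4% of all genes, with FASN at -0.14 (edgeR, adjusted p = 0.0371), SCD at -0.32, ELOVL6 at 0.43, ACACA at 0.34, ACSS2 at 0.30 and FADS1 at 0.20. In the antisense background FASN came to -1.55, SCD to -1.30, ACLY to -0.94 and ACSS2 to -0.50, while ELOVL6 came to 0.00, FADS2 to -0.11, ACACA to -0.28 and FADS1 to 0.44. ME1 and ACSL3 turned from 0.32 and 0.14 to -0.33 and -0.57 there.

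**Figure D4:**
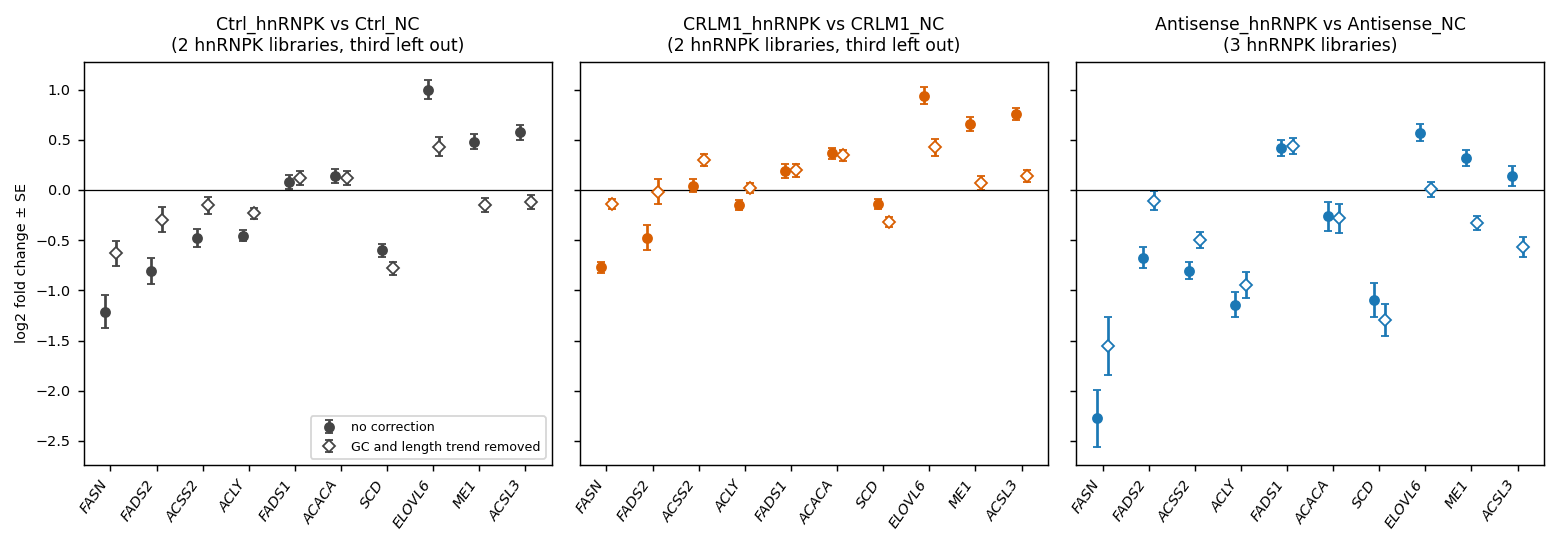
Log2 fold change with its SE (edgeR) of each member with hnRNPK against NC in the Ctrl, CRLM1 and antisense backgrounds, before (filled) and after (open) the GC and length trend was removed. Replicate 3 is left out of Ctrl_hnRNPK and CRLM1_hnRNPK. In the antisense background FASN moves from -2.27 to -1.55 and SCD from -1.10 to -1.30.

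CRLM1_hnRNPK held higher levels of 4 members than Ctrl_hnRNPK in a fit with the replicate as a block and in a fit without replicate 3, but not in the plain fit of all libraries. With all libraries and no pairing 0 of 10 members passed, beside 0.0137% of 14641 genes, and so with DESeq2 and limma, with ACSS2 alone at an unadjusted p under 0.05. The log2 fold changes were 0.74 ± 0.28 for ACSS2, 0.62 ± 0.48 for FASN, 0.44 ± 0.24 for SCD and 0.34 ± 0.24 for ACLY, each with an adjusted p of 1.00 by edgeR. In each replicate number CRLM1_hnRNPK lay above Ctrl_hnRNPK for these genes, as for ACSS2 with 74.4 against 48.6 CPM, 85.5 against 43.5 CPM and 110 against 70.6 CPM. The same-numbered libraries of both groups deviated together, and both replicate 3 libraries, which stood apart, enter these deviations. The labels number the replicates without saying that they pair, so the pairing was taken from these same data. The p-values of the block fit depend on that choice. With the replicate as a block ACSS2 (0.75 ± 0.11, edgeR adjusted p = 0.000791), FASN (0.70 ± 0.13, edgeR adjusted p = 0.00596), SCD (0.45 ± 0.10, edgeR adjusted p = 0.0146) and ACLY (0.34 ± 0.09, edgeR adjusted p = 0.0321) were higher, beside 3.82% of genes that passed higher. Without replicate 3 of both groups they passed too, FASN at 0.80 ± 0.14 (edgeR, adjusted p = 0.00342) and ACSS2 at 0.78 ± 0.11 (edgeR, adjusted p = 6.36e-05), SCD at 0.52 ± 0.09 (edgeR, adjusted p = 0.000664) and ACLY at 0.36 ± 0.09 (edgeR, adjusted p = 0.0101), beside 8.88% of genes. The other 6 members did not pass in either fit.

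Whether the shift with hnRNPK differed between the CRLM1 and the Ctrl background was tested by the interaction term. With all libraries 0 of 10 members passed, beside 0.0% of 15188 genes, by edgeR, DESeq2 or limma, with 0 members and 221 genes at an unadjusted p under 0.05. Without replicate 3 of both hnRNPK groups the log2 shift was higher in the CRLM1 background than in the Ctrl background for ACSS2 (difference 0.55 ± 0.11, edgeR adjusted p = 0.00575), SCD (0.49 ± 0.09, edgeR adjusted p = 0.00180) and ACLY (0.33 ± 0.08, edgeR adjusted p = 0.0157). FASN had a difference of 0.47 ± 0.19 that did not pass (edgeR, adjusted p = 0.298). These were 3 of 10 members, beside 3.36% of genes that passed in this direction. With the GC and length trend removed as well they stood at 0.48, 0.49 and 0.28, and 2.82% of all genes passed.

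The hnRNPK group of the antisense background, set beside the other hnRNPK groups, is described only. Against Ctrl_hnRNPK, FASN was 2.08-fold lower (-1.06 ± 0.40) and ACSS2 1.96-fold higher (0.97 ± 0.22). The groups overlapped for FASN, and without overlap ACLY was lower and ELOVL6, FADS1, ACSS2 and ACSL3 were higher, beside 25.0% and 29.9% of all genes. Without replicate 3 of each group FASN came to -0.59 ± 0.50 and ACSS2 to 1.19 ± 0.13. CRLM1_hnRNPK stood above Antisense_hnRNPK by 1.66 ± 0.37 for FASN and 0.76 ± 0.22 for ACLY, the 2 members higher without overlap, beside 23.9% of all genes, and below it for ELOVL6 and FADS1, beside 29.9%. Without replicate 3, FASN came to 1.41 ± 0.49.

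Among 14 regulators of lipogenesis measured, more were lower than higher in all of the hnRNPK groups, with all libraries and without replicate 3. With all libraries the sign of the log2 fold change was lower for 12 and higher for 2 in Ctrl_hnRNPK, and lower for 11 and higher for 3 in CRLM1_hnRNPK. In Antisense_hnRNPK against Antisense_NC, described only, 10 were lower and 1 higher without overlap, beside 33.1% and 35.4% of all genes, with a median of -0.38 against 0.04 over all genes. INSIG1, which holds SREBF proteins at the endoplasmic reticulum and is itself one of their targets, stood at -1.15, SREBF2 at -1.13 and SREBF1 at -1.06, and without replicate 3 of Antisense_hnRNPK INSIG1 came to -1.44. The mean level of SREBF1 was 419 CPM in Antisense_NC and 202 CPM in Antisense_hnRNPK. In Ctrl_hnRNPK without replicate 3, 10 regulators fell and 2 rose, beside 29.9% and 29.6% of all genes, among them SREBF2 (-0.94, edgeR adjusted p = 0.000380), SREBF1 (-0.82, edgeR adjusted p = 0.00115), INSIG1 (-0.42, edgeR adjusted p = 0.0463) and the liver X receptor NR1H2 (-1.31, edgeR adjusted p = 1.75e-07), an activator of SREBF1. In CRLM1_hnRNPK without replicate 3, 9 fell and 2 rose, beside 29.1% and 29.5% of all genes, with SREBF2 at -0.56 (edgeR, adjusted p = 9.50e-11), SREBF1 at -0.45 (edgeR, adjusted p = 1.59e-07) and NR1H2 at -1.36 (edgeR, adjusted p = 8.76e-12), whereas INSIG1 at 0.07 did not pass (edgeR, adjusted p = 0.231). With all libraries 0 of the 14 passed in either background by edgeR. With the GC and length trend removed as well as replicate 3, 4 regulators were lower and 0 higher in Ctrl_hnRNPK, beside 12.7% and 10.3% of all genes, and 3 lower and 2 higher in CRLM1_hnRNPK, beside 11.0% and 14.4%. SREBF1 (63.2% GC) then stood at -0.23 in the Ctrl background (edgeR, adjusted p = 0.200) and at 0.13 in the CRLM1 background (edgeR, adjusted p = 0.0839), where its sign turned, so it no longer passed in either. SREBF2 (58.1% GC) stood at -0.47 (edgeR, adjusted p = 0.0171) and -0.13 (edgeR, adjusted p = 0.0306). INSIG1 (44.8% GC) stood at -0.72 (edgeR, adjusted p = 0.0157) and, now passing, at -0.23 (edgeR, adjusted p = 0.00100), and NR1H2 (61.4% GC) at -0.74 (edgeR, adjusted p = 0.000460) and -0.82 (edgeR, adjusted p = 4.71e-07). In the antisense background with all libraries and the trend removed, SREBF1, SREBF2 and INSIG1 came to -0.38, -0.61 and -1.48.

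In CRLM1_NC against Ctrl_NC, 3 regulators passed higher and 4 lower, beside 16.9% and 17.4% of all genes. SREBF2 rose by 0.36 on the log2 scale (edgeR, adjusted p = 1.41e-12) and INSIG1 by 0.28 (edgeR, adjusted p = 4.02e-09), and SREBF1 fell by 0.09 (edgeR, adjusted p = 0.0379). Antisense_NC against Ctrl_NC had 8 higher and 5 lower without overlap, beside 38.2% and 30.7% of all genes, with SREBF2 at 1.05, NR1H2 at 1.19 and INSIG1 at 0.50.

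Of the genes for the supply of citrate and NADPH, more were lower than higher with hnRNPK in each background. Of 8 genes tested, 6 fell and 2 rose in Ctrl_hnRNPK without replicate 3, and likewise 6 and 2 in CRLM1_hnRNPK without replicate 3, beside 29.9% and 29.6% of all genes in the former and 29.1% and 29.5% in the latter. SLC25A1, the mitochondrial citrate exporter, fell by 1.15 in the Ctrl background (edgeR, adjusted p = 3.94e-09) and by 0.74 in the CRLM1 background (edgeR, adjusted p = 7.98e-12), and PGD, an NADPH-forming enzyme of the pentose phosphate pathway, by 0.64 (edgeR, adjusted p = 1.12e-06) and 0.29 (edgeR, adjusted p = 3.64e-05). The mitochondrial malic enzyme ME2 rose by 1.16 (edgeR, adjusted p = 6.86e-09) and 1.10 (edgeR, adjusted p = 1.60e-13), as its cytosolic counterpart ME1 did. With the GC and length trend removed as well, 5 were lower and 1 higher in the Ctrl background, beside 12.7% and 10.3% of all genes, and 2 lower and 1 higher in the CRLM1 background, beside 11.0% and 14.4%. SLC25A1 (64.5% GC) then stood at -0.53 (edgeR, adjusted p = 0.000101) and at -0.12, which did not pass (edgeR, adjusted p = 0.0843), and ME2 (39.2% GC) at 0.48 (edgeR, adjusted p = 0.000516) and 0.51 (edgeR, adjusted p = 1.33e-06). In Antisense_hnRNPK 6 were lower and 2 higher without overlap, beside 33.1% and 35.4% of all genes, with SLC25A1 at -1.43 and PGD at -0.66. SLC25A1 was among 3 genes of the list whose shift differed between the CRLM1 and Ctrl backgrounds without replicate 3 (interaction 0.44, edgeR adjusted p = 0.0132), beside 3.36% of all genes higher.

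The remaining lists moved in both directions. Their counts stand beside 33.1% of all genes lower and 35.4% higher without overlap in Antisense_hnRNPK, and, of genes that passed without replicate 3, 29.9% lower and 29.6% higher in Ctrl_hnRNPK and 29.1% lower and 29.5% higher in CRLM1_hnRNPK. Of 14 other elongation and desaturation genes, 5 were lower and 4 higher without overlap in Antisense_hnRNPK, led by the enoyl reductase TECR (-1.34) and the cytochrome b5 reductase CYB5R3 (-1.11), and ELOVL1 lay at -0.58. Without replicate 3, 5 fell and 5 rose in Ctrl_hnRNPK and 4 fell and 6 rose in CRLM1_hnRNPK, and TECR fell by 0.73 (edgeR, adjusted p = 4.95e-08) and 0.68 (edgeR, adjusted p = 9.33e-12). With the trend removed TECR (60.5% GC) came to -0.18, which did not pass (edgeR, adjusted p = 0.0502), and -0.16 (edgeR, adjusted p = 0.0150). Of 4 tested paralogs that form acetyl-CoA or acyl-CoA, 0 were lower and 2 higher without overlap in Antisense_hnRNPK, where ACSL5 was at 0.68 and ACSL4 at 0.21, and without replicate 3 there were 1 lower and 3 higher in Ctrl_hnRNPK and 1 lower and 2 higher in CRLM1_hnRNPK. Of 13 glycerolipid assembly genes, 6 were lower and 4 higher without overlap in Antisense_hnRNPK, with AGPAT5 at 1.12, AGPAT2 at -0.99 and GPAT3 at 0.19. Without replicate 3, 6 were lower and 2 higher in Ctrl_hnRNPK and 4 lower and 3 higher in CRLM1_hnRNPK, and the triglyceride-forming enzyme DGAT2 fell in Ctrl_hnRNPK by 1.09 (edgeR, adjusted p = 7.69e-05).

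Of the 6 genes of mitochondrial fatty acid synthesis, a separate pathway with its own enzymes, 3 were lower and 2 higher without overlap in Antisense_hnRNPK, and 3 passed lower and 2 higher in both Ctrl_hnRNPK and CRLM1_hnRNPK without replicate 3. NDUFAB1, its acyl carrier protein, was at -0.12 and HSD17B8 at -0.56 in Antisense_hnRNPK. Of 16 genes of fatty acid oxidation, the opposite process, 5 were lower and 5 higher without overlap in Antisense_hnRNPK, and without replicate 3 those that passed were 6 lower and 5 higher in Ctrl_hnRNPK and 6 lower and 7 higher in CRLM1_hnRNPK. ACADM, a medium-chain acyl-CoA dehydrogenase, stood out at 1.58 in Antisense_hnRNPK, 1.23 in Ctrl_hnRNPK (edgeR, adjusted p = 2.63e-06) and 1.05 in CRLM1_hnRNPK (edgeR, adjusted p = 2.45e-07), the last 2 without replicate 3. With the trend removed ACADM (35.9% GC) came to 0.85, 0.56 (edgeR, adjusted p = 0.0153) and 0.42 (edgeR, adjusted p = 0.0267). The most abundant genes of this list, ACADVL and HADHA, were at -0.36 and 0.04 in Antisense_hnRNPK. With all libraries, none of the genes of these lists passed in Ctrl_hnRNPK against Ctrl_NC or in CRLM1_hnRNPK against CRLM1_NC by edgeR.

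Over the 18 libraries, ACLY was the member whose level followed FASN most closely. Pearson's r of log2(CPM + 1) with FASN was 0.97 for ACLY, the rank of 12 among 8439 genes whose mean reached 10 CPM. FADS2 at 0.77 and SCD at 0.74 came next among the members, though only at ranks 1579 and 1781. The r was 0.35 for ACSS2 and 0.19 for ACACA, and negative for ACSL3 (-0.46), ME1 (-0.71), ELOVL6 (-0.72) and FADS1 (-0.74). ACSS2 and ACACA, at ranks 3711 and 4115, lay near the middle of all genes in this order. Over the 16 libraries other than replicate 3 of Ctrl_hnRNPK and CRLM1_hnRNPK, r was 0.98 for ACLY, 0.79 for SCD, 0.75 for FADS2, 0.42 for ACACA and 0.36 for ACSS2, and -0.39 to -0.83 for the others. ELOVL6 and ACSL3 followed each other at 0.92, SCD and ACSS2 at 0.82 and ELOVL6 and ME1 at 0.78. Among the 5 genes nearest to FASN were ALDOC (0.98), GBF1 (0.98) and EBP (0.97), of 54.0% to 55.5% GC. ALDOC is a glycolytic aldolase, GBF1 acts in traffic through the Golgi and EBP is an enzyme of cholesterol synthesis. These values describe 18 libraries that fall into 6 groups and share the trend on GC content, so no test is attached to them.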

How the data were processed

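RNA was extracted with TRIZOL, libraries were made with the KAPA RNA HyperPrep kit and sequenced as paired ends on an Illumina platform. The authors trimmed the reads, aligned them with TopHat2 to GRCh38 with a Gencode annotation, kept uniquely mapped reads, and deposited read counts per gene and FPKM per gene. The FPKM values, made by the authors per library, were used to compare levels between genes and in limma alternatives on log2(FPKM + 0.1) and log2(FPKM + 1). The strand setting of the counting is not given in the sources used here.

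Deposited counts were tested with edgeR 4.0.16 in R 4.3.3 (filterByExpr, TMM, robust quasi-likelihood F-test, two-sided, Benjamini-Hochberg over all genes tested) in a fit of the 2 groups compared, 3 libraries against 3. Comparisons with antisense libraries carry no test of members or lists. Their counts are of genes whose groups did not overlap in CPM or that differed by 2-fold, a choice made after the data were seen. Elsewhere "passed" means an adjusted p of at most 0.05, and 2-fold is named where it was also required. SE is the log2 fold change divided by the square root of F. CPM used TMM over 18 libraries. Alternatives were DESeq2 1.42.0, limma 3.58.1, RLE size factors, no filter, a single fit, a replicate block, libraries left out, and removal of a GC and length trend. That trend was a spline on GC content (5 degrees of freedom) and length (4) from Gencode v44, which had values for 96.8% of genes. It was fitted in each library to log2 CPM minus the gene's mean and entered edgeR as offsets, so it can change the spread as well as the fold change. Scripts were tested on simulated data. Replicate numbers were taken to pair libraries where deviations from the group means correlated at over 0.1 in each pair, a rule applied to these same data. This held for CRLM1_hnRNPK against Ctrl_hnRNPK (r = 0.74, 0.62 and 0.83) and for no other comparison. The p-values measure the spread between the libraries of each fit, and those of fits without replicate 3 leave its spread out.

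The members and lists were chosen with earlier results of these data known. Genes named were the members, the checks HNRNPK and LINC01767, from each list the 2 with the highest level per length and those past 2-fold, at most 4, and the 5 most like FASN, of which 2 are not reported here. SREBF1, TECR, SLC25A1, INSIG1 and others named in one comparison were carried into the others.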

Additional observations from a re-analysis of the deposited data

Results flagged for a closer look

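Differences between the CRLM1 and the Ctrl background in the shift with hnRNPK passed the interaction test in edgeR for 3 members once replicate 3 was left out of both hnRNPK groups. They were 0.55 on the log2 scale for ACSS2, 0.49 for SCD and 0.33 for ACLY. With all libraries 0 members passed this test. Single libraries were not tested as outliers in these groups of 3.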

How the results depend on the processing

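Of 514 recomputed values of single members in the tested comparisons, 424 kept their direction and their side of the threshold, 23 reversed, 62 passed only in the alternative and 5 passed only as reported. Of 504 in the comparisons with antisense libraries, which carry no test, 431 moved by less than the spread between replicates, 58 moved by more and 15 reversed. The cause was not tested for any of them. The tally followed FASN, ACSS2 and SCD in CRLM1_NC against Ctrl_NC, and added ACLY in CRLM1_hnRNPK against Ctrl_hnRNPK and in the interaction. Between Antisense_hnRNPK and Ctrl_hnRNPK it followed FASN and ACSS2, and between CRLM1_hnRNPK and Antisense_hnRNPK FASN and ACLY. Other members of those comparisons are not in it, and the remaining comparisons are covered for every member. In CRLM1_NC against Ctrl_NC, 3 members passed, against 0 in a single fit of all libraries and 5 with the GC and length trend removed. In Ctrl_hnRNPK against Ctrl_NC, 0 passed, against 8 without replicate 3 of the hnRNPK groups and 4 with the GC and length trend removed as well. In CRLM1_hnRNPK against CRLM1_NC the counts were 0, 9 and 6, in CRLM1_hnRNPK against Ctrl_hnRNPK 0, 4 and 4, and in the interaction 0, 3 and 3. With the trend removed and all libraries kept, 0 members passed in each of these comparisons that use hnRNPK libraries. The replicate block gave 4 members in CRLM1_hnRNPK against Ctrl_hnRNPK, where the pairing was taken from the data, and changed no other call on a member in the tested comparisons. In the comparisons with antisense libraries, members past 2-fold were counted. There were 3 in Antisense_hnRNPK against Antisense_NC, against 1 and 1 with limma on log2(FPKM + 0.1) and log2(FPKM + 1), 1 in Antisense_NC against Ctrl_NC, against 2 and 2 with limma, and 1 in Antisense_hnRNPK against Ctrl_hnRNPK, against 0 with the replicate block.

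Single values of this tally that turned sign were the following. In Ctrl_hnRNPK against Ctrl_NC, ACACA came to 0.040 and 0.039 with limma, 0.14 without replicate 3 and 0.12 with the trend removed as well. FADS1 came to 0.060 and 0.054 with limma, 0.013 with the trend removed, 0.077 without replicate 3 and 0.12 with both. With the trend removed, and then with replicate 3 left out as well, ME1 came to -0.19 and -0.15 and ACSL3 to -0.090 and -0.12. In CRLM1_hnRNPK against CRLM1_NC with the trend removed, FASN came to 0.012, FADS2 to 0.10 and ACLY to 0.051, and ACLY to 0.020 without replicate 3. In Antisense_hnRNPK against Antisense_NC, ME1 came to -0.33 with the trend removed and to -0.39 without replicate 3 as well, and ELOVL6 to -0.065 in the latter. ACSL3 came to -0.57 with the trend removed, -0.011 without replicate 3 and -0.69 with both. In Antisense_NC against Ctrl_NC, FADS1 came to 0.026 and 0.023 and ME1 to 0.14 and 0.13 with limma on FPKM, which moved the median of all genes by 0.21 there and by 0.25 in Antisense_hnRNPK against Antisense_NC. In CRLM1_NC against Antisense_NC, FADS1 came to -0.078 and -0.068 with limma and ME1 to 0.25 with the trend removed.

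With each library left out in turn, 2 to 5 members passed in CRLM1_NC against Ctrl_NC, 0 to 8 in Ctrl_hnRNPK against Ctrl_NC (8 without replicate 3 of Ctrl_hnRNPK) and 0 to 9 in CRLM1_hnRNPK against CRLM1_NC (9 without replicate 3 of CRLM1_hnRNPK). Members past 2-fold numbered 2 to 3 in Antisense_hnRNPK against Antisense_NC. In these fits ACACA ranged from -0.18 to 0.14 and FADS1 from -0.090 to 0.077 in Ctrl_hnRNPK against Ctrl_NC, FADS2 from -0.48 to 0.10 in CRLM1_hnRNPK against CRLM1_NC, ACSL3 from -0.011 to 0.23 in Antisense_hnRNPK against Antisense_NC, ME1 from -0.074 to 0.028 in CRLM1_NC against Antisense_NC, and the FASN interaction from -0.16 to 0.89.

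In Ctrl_hnRNPK and CRLM1_hnRNPK the calls rest on whether replicate 3 is kept, and without it on 2 libraries. The Spearman correlation of a library's shift with GC content was -0.83 to -0.67 in the hnRNPK libraries other than replicate 3 of Ctrl_hnRNPK and of CRLM1_hnRNPK, where it was 0.15 and 0.50, and the part of library make-up in this was not tested.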
